A study of Drosophila melanogaster with 8 samples.

Results

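The genes described here supply sterols to the prothoracic gland and turn them into ecdysone, the steroid hormone that times the moults and metamorphosis of insects. They were chosen by name, as a list of 10 FlyBase symbols (nvd, spo, sro, dib, sad, shd, Npc1a, Start1, ecd and ouib), together with every gene whose exons overlap theirs on the other strand. Of these, 9 were found by identifier among the 17445 features (gene identifiers with a read count) of the files, and 6 further features lie opposite them. The identifier that the annotation gives for nvd, which encodes the enzyme of the opening step from cholesterol, matched no feature, and nvd was not analysed here.

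Ecdysone is made from dietary sterol, which cells take up and move between compartments with the help of carrier proteins such as Npc1a. In the prothoracic gland, part of the larval ring gland, a chain of oxidising enzymes named after the Halloween group of mutants converts it to ecdysone, and peripheral tissues then add the hydroxyl group that makes the active hormone. Pulses of this hormone end each larval instar, so the same genes bear on how long a larva grows before it pupariates. The study also considered ecdysone signalling in larvae that lack both Gpdh1 and Ldh. The libraries here come from larvae without Ldh alone, and the comparison asks whether ecdysone synthesis features differ in that single mutant.

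RNA was measured by sequencing in whole larvae of the middle second instar. Each sample pooled 25 larvae that had developed at 25 °C for 60 hours. The Ldh mutants (genotype w[1118]; Ldh[16/17], an animal with a different mutant Ldh allele on each chromosome) and the controls (w[1118]; Ldh[precise], from a precise excision at Ldh) each had 4 libraries, numbered 1, 2, 3 and 6 in mutants and 1, 2, 5 and 6 in controls. Both groups carry the w[1118] background. The study's text describes heterozygous controls and another number of replicates for its Ldh mutants, and the groups here follow the labels. Separate cultures for the samples of a group are not stated in the labels, so the p-values rest on a spread between samples that may be technical.

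Between 371700 and 560865 reads per library were assigned to a feature, and 97.8% to 98.1% of uniquely aligned reads fell in no feature. Neither the kit nor the strand setting used for counting is given in the sources used here, so reads from a gene cannot be told apart from those of its opposite-strand partner. Of the reads in placed features, 94.6% lay in features with an exon on the other strand. Protein-coding features with such an exon had 69 reads at the median over all libraries, and those without had 2. Which strand the counted reads came from was not tested, so the reads of a feature may not be those of the named gene. The feature of Ldh, whose enzyme makes lactate from pyruvate, was at 0 reads in all 4 mutants and at 4, 3, 5 and 1 reads in controls (replicates 1, 2, 5 and 6). Its ratio of mutant to control reads was 0, with an exact 95% interval of 0 to 0.317 that covers counting error only. Summed over marker lists, muscle genes (5 of 6 matched) had 650 to 926 reads in mutants and 587 to 1133 in controls. Nervous system genes had 848 to 999 and 852 to 1148 (7545 of the 7584 reads from elav, which lies opposite arg), and midgut genes 4 to 19 and 5 to 9. Fat body genes had 9 to 17 and 9 to 18, with Fbp1 at 0 and 100 of the 111 reads from apolpp, which lies opposite Zyx. Markers of the other ring gland cells (jhamt, Akh, Lst and amon) had 0 to 5 reads in mutants and 0 to 6 in controls, with Akh at 0 in every library. Of these lists, 5 muscle genes, 1 nervous system gene and 1 fat body gene were tested for a difference. None was called, against 3.17% of all features tested, and these genes are too few to tell 0 from that share. The part of these lists in the results below was not tested. The gland itself is a small part of a larva, and fewer cells of a type and less RNA per cell cannot be told apart in these samples.

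Most reads of the ecdysone synthesis features lay in those whose end overlaps the end of a neighbour, as did most reads of the whole series in features with an exon opposite. In BDGP6 coordinates, 6 of the 9 genes meet another gene tail to tail, so that exons of the 2 genes cover each other at their 3′ ends. These 6 held 1024 of the 1051 reads counted over the 8 libraries (97.4%, beside 94.6% over all placed features), and the 3 genes without an opposite-strand exon held 27. The gene dib alone took 60.1% of the reads.

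The overlaps differ in length. The gene dib (FBgn0000449; 3L, 4062292 to 4064551, plus strand) shares 400 bases with wit (FBgn0024179; 3L, 4064152 to 4071717, minus strand), which encodes a BMP receptor of motor neurons. For spo (FBgn0003486; 3L, 5590083 to 5592571, minus strand) the overlap with l(3)psg2 (FBgn0035617; 3L, 5583669 to 5590390, plus strand) is 308 bases. Start1 (FBgn0035028; 2R, 24574559 to 24577676, plus strand) shares 111 bases with SIFa (FBgn0053527; 2R, 24577566 to 24578143, minus strand), the gene of a neuropeptide made by a few brain neurons. The gene sro (FBgn0262112; 3R, 29794597 to 29795805, plus strand) shares 109 bases with Rnb (FBgn0039696; 3R, 29795697 to 29799354, minus strand). The overlap is 53 bases for sad (FBgn0003312; 3R, 11877235 to 11879754, plus strand) with CG6962 (FBgn0037958; 3R, 11879702 to 11882534, minus strand), and 35 bases for ecd (FBgn0000543; 3L, 2263581 to 2265857, minus strand) with CG13807 (FBgn0035323; 3L, 2262919 to 2263615, plus strand).

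In all 6 pairs the shared bases are 3′ untranslated sequence of the opposite gene. They are also 3′ untranslated sequence of the member, except for 2 coding bases of sro. The shared stretch makes up 20.3% of the exon length of dib and 21.1% of that of SIFa, the largest shares among the pairs, and 1.59% of the exon length of ecd, the smallest. The other 3 genes, shd (FBgn0003388; 3L, 14614458 to 14622205, plus strand), Npc1a (FBgn0024320; 2L, 10213812 to 10221216, minus strand) and ouib (FBgn0037618; 3R, 8725479 to 8726730, plus strand), have no exon on the other strand.

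**Figure D1:**
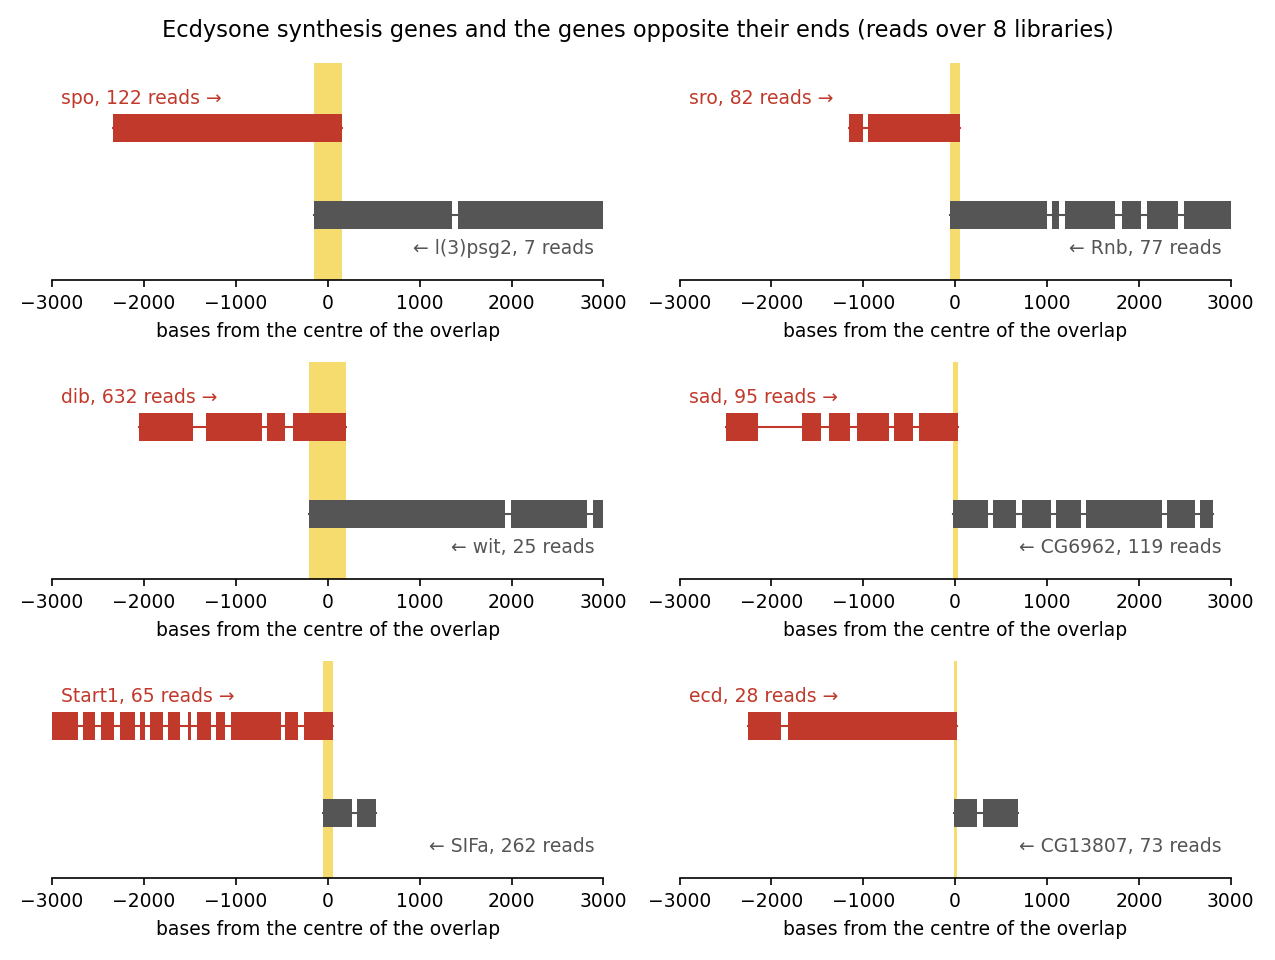
Exons (boxes) of 6 ecdysone synthesis genes (red, drawn left to right) and of the gene opposite each (grey, drawn right to left), in bases from the centre of the stretch they share (yellow); every panel has the same scale. The printed reads are those of the whole feature over 8 libraries, and run from 632 for dib and 262 for SIFa to 7 for l(3)psg2.

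The members lay within the range of like genes across the genome. Protein-coding features with an exon opposite (3759) had 69 reads over the 8 libraries at the median, and those without (9939) had 2. Among the former, dib had more reads per base of exon than 85.2% of features, sro than 61.7%, sad than 56.5%, spo than 55.0%, Start1 than 45.7% and ecd than 35.9%. Among the latter, ouib exceeded 75.5%, shd 68.8% and Npc1a 65.8%, although these genes had only 5, 9 and 13 reads. This is a description of where the members lie, and no test was made of it.

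**Figure D2:**
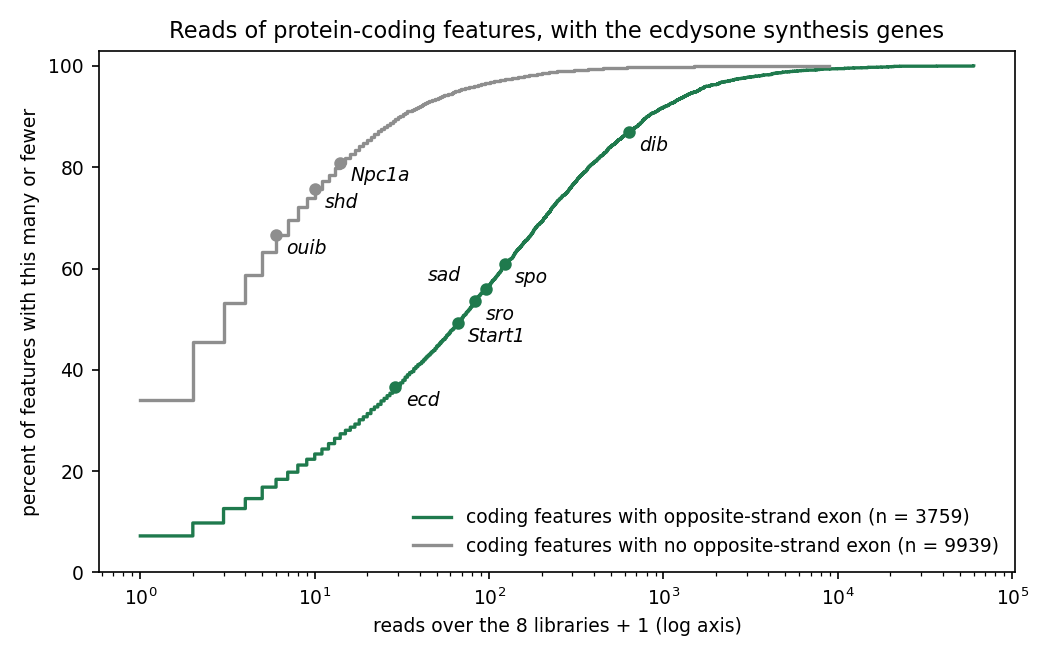
Cumulative share of protein-coding features (y axis, percent) by reads over 8 libraries plus 1 (x axis, log scale), for features with (green) and without (grey) an exon on the other strand; points mark the 9 ecdysone synthesis genes. The green curve reaches 50% at 69 reads and the grey at 2, and dib lies at 632 reads.

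No difference between Ldh mutants and controls was found among the ecdysone synthesis features, but few of them could be tested. Only dib, spo and sad passed the expression filter of edgeR and were tested, with SIFa and CG6962 of the opposite features. Of these 5, 0 were called at an adjusted p under 0.05 (edgeR quasi-likelihood test, Benjamini-Hochberg adjustment over 2589 features), against 3.17% of all features tested. With 5 features, 0 cannot be told from that share. No feature of the 5 had an unadjusted p under 0.05 either, and 0 were called by DESeq2 or by limma-voom. Across all 15 features, members and opposite, the groups overlapped in every case. Over the whole series they did not overlap in 3.73% of the 11473 features with a read and in 9.54% of those tested. So few features cannot tell 0 from these shares. All 15 were also compared by permuting the libraries between groups (exact, two-sided, on log2(CPM + 1)), where CPM are counts per 1000000 reads after TMM scaling. Of these 0 had an exact permutation p under 0.05. The smallest value this design can give, 0.0286, is reached only where the groups do not overlap. This count of 0 therefore follows from the overlap in all 15 and adds nothing to it.

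The features of dib, spo, sad and sro had the most reads among the members, whichever strand was read. The gene dib encodes a mitochondrial cytochrome P450, one of the late hydroxylases of ecdysone synthesis. It had 74, 76, 111 and 76 reads in mutant replicates 1, 2, 3 and 6, and 72, 67, 100 and 56 in the controls numbered 1, 2, 5 and 6. The highest read numbers came from mutant replicate 3 and control replicate 5, the latter the library with the most reads, and the groups overlapped. After scaling, dib stood at 189.0 ± 35.8 CPM in mutants and 170.3 ± 15.9 CPM in controls (SD, n = 4 each). The log2 fold change of dib, mutant over control, was 0.15 (SE 0.15, 95% interval -0.18 to 0.48; edgeR adjusted p = 0.743). On the linear scale this interval runs from 0.881 to 1.39. Without mutant replicate 3 the log2 difference was 0.0045.

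The gene spo encodes another P450 of the pathway, which acts at the poorly known steps in the middle of the chain and whose paralogue spok does this work in the larval gland. It had 15, 21, 21 and 8 reads in mutant replicates 1, 2, 3 and 6, and 13, 15, 17 and 12 in control replicates 1, 2, 5 and 6. Mutant replicate 6 was the lowest of the 8 libraries and the other 3 mutants lay above every control in CPM. Leaving out that library removes the overlap by construction, as it does for 12.5% of all features tested. With all libraries the levels were 36.2 ± 12.4 CPM in mutants and 33.3 ± 2.56 CPM in controls (SD, n = 4 each). The fitted log2 difference was 0.13 (SE 0.28, 95% interval -0.48 to 0.74; edgeR adjusted p = 0.903).

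The gene sad encodes the mitochondrial P450 of the last step inside the gland. It had 12, 15, 7 and 16 reads in mutants and 7, 11, 16 and 11 in controls, in the same order of replicates. Mutant replicate 3 was the lowest in CPM, below every control, while the other mutants were above them. Without that library 17.2% of all features tested had no overlap between groups, sad among them. Over all 8 libraries the levels were 28.2 ± 9.17 CPM in mutants and 25.9 ± 5.27 CPM in controls (SD, n = 4 each). The fitted log2 difference was 0.11 (SE 0.31, 95% interval -0.55 to 0.77; edgeR adjusted p = 0.933).

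The dehydrogenase gene sro, which acts at the same ill-defined middle steps as spo, had 8, 15, 7 and 8 reads in mutants and 8, 7, 16 and 13 in controls. Its highest levels were in control replicate 6 and in mutant replicate 2, so the groups overlapped. The levels were 21.1 ± 6.96 and 25.4 ± 8.11 CPM (SD, n = 4 each; exact permutation p = 0.429). Reads of sro had a mutant to control ratio of 0.834 (exact 95% interval 0.526 to 1.32).

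The P450 gene shd, which makes the active hormone in peripheral tissues rather than in the gland, was nearly unread. It had 1, 3, 0 and 3 reads in mutants and 1, 0, 0 and 1 in controls. The ratio of 3.38 rests on 7 reads against 2, with an interval of 0.644 to 33.4 (exact permutation p = 0.4), and was 5.31 without control replicate 6. A library without a read allows up to 3 reads, which is 5.38 to 8.12 CPM at these numbers of assigned reads. An increase of shd of several fold in mutants would lie inside this interval and was not detectable at this depth.

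**Figure D3:**
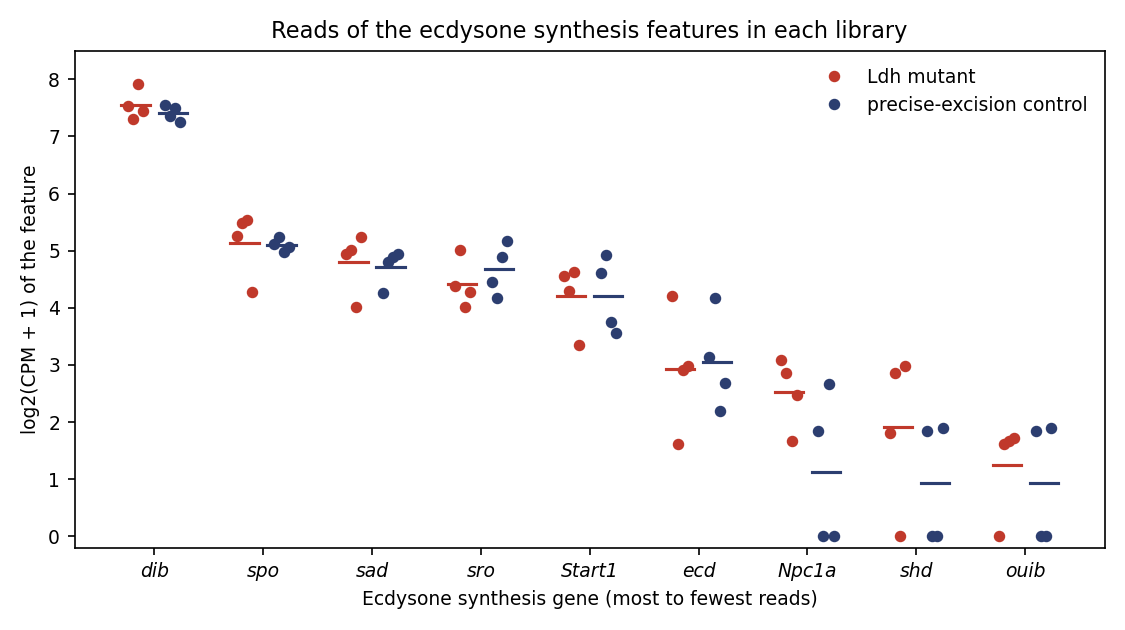
Level of each of 9 ecdysone synthesis features, as log2(CPM + 1), in 4 Ldh mutant libraries (red) and 4 precise-excision control libraries (blue); each point is a library and each bar a group mean on this scale. The groups overlap for every gene, with dib at 157.7 to 240.05 CPM in mutants and 151.6 to 187.02 CPM in controls.

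Among the genes of sterol supply, Npc1a, a membrane protein that moves sterols out of endosomes, had 3, 3, 1 and 2 reads in mutants and 1, 0, 3 and 0 in controls. All 4 mutant libraries had a read against 2 of the controls, but control replicates 1 and 5 lay within the range of the mutants. Its ratio was 2.17 (exact 95% interval 0.607 to 9.66; exact permutation p = 0.171), and 5.88 without control replicate 5, which held 3 of the 4 control reads. Start1, which encodes a protein with a lipid-binding domain like that of the vertebrate steroidogenic carrier StAR, had 9, 9, 11 and 4 reads in mutants and 9, 12, 7 and 4 in controls. The levels were 18.5 ± 6.61 and 19.0 ± 8.81 CPM (SD, n = 4 each), with replicate 6 the lowest library in both groups. The ratio of Start1 was 0.996 (0.594 to 1.67; exact permutation p = 1).

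The remaining members act on the other genes. The gene ecd, whose protein is needed for ecdysone synthesis and for pre-mRNA splicing, had 7, 1, 3 and 3 reads in mutants and 3, 7, 2 and 2 in controls. A single library in each group reached 7 reads, mutant replicate 1 and control replicate 2. The ratio of ecd was 0.966 (exact 95% interval 0.427 to 2.19; exact permutation p = 0.886). It was 0.623 without mutant replicate 1 and 1.47 without control replicate 2. The gene ouib, which encodes a zinc finger protein that switches on spok in the gland, had 0, 1, 1 and 1 reads in mutants and 1, 0, 0 and 1 in controls, too few to compare (ratio 1.45, exact 95% interval 0.166 to 17.4).

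Per length, dib stood above the other members and most neighbours in the order did not separate. Averaged over the 8 libraries, dib had 91.0 ± 13.9 CPM per kb of exon (SD). Next came sro with 20.2 ± 6.38, sad with 15.2 ± 3.97 and spo with 14.0 ± 3.39 CPM per kb, which overlapped each other in their spread. Start1 followed with 7.83 ± 3.01 and ecd with 3.79 ± 2.63 CPM per kb, again within each other's spread. The lowest levels were those of ouib (1.30 ± 1.09), shd (0.865 ± 0.900) and Npc1a (0.683 ± 0.539 CPM per kb), the 3 genes with no opposite-strand exon, and their order is not resolved. These are levels of the features, whichever strand was read.

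Counting alone would give a chi-square per degree of freedom of about 1 between libraries of a group. Within groups, this measure was between 0.574 and 1.40 for spo, sro, sad, shd, Npc1a, Start1 and ouib. For ouib, shd and Npc1a, with 5, 9 and 13 reads in all, the counts are too low for this measure to show added spread. It was 1.87 for dib and 2.12 for ecd. Summed over the 9 members, mutants had 129, 144, 162 and 121 reads and controls 115, 119, 161 and 100. In CPM the sum was 277 to 350 in mutants and 271 to 299 in controls, and the ranges overlapped. No test was made of this sum.

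The features on the other strand did not separate the groups either. The feature of wit, opposite dib, had 2, 5, 5 and 0 reads in mutants and 2, 2, 3 and 6 in controls, 25 in all against 632 for dib (ratio 0.892, exact 95% interval 0.372 to 2.12). The feature l(3)psg2, opposite spo, had 1 read in each mutant library and 0, 1, 0 and 2 in controls (ratio 1.29, exact 95% interval 0.218 to 8.79, and 3.04 without control replicate 6). Per length, dib stood at 91.0 CPM per kb against 1.72 ± 1.18 for wit (SD over 8 libraries), and spo at 14.0 against 0.319 ± 0.257 for l(3)psg2.

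SIFa, by contrast, stood at 141.6 ± 20.5 CPM per kb, above the 7.83 of Start1. It had 28, 38, 28 and 31 reads in mutants and 34, 25, 49 and 29 in controls, or 70.0 ± 7.49 CPM in mutants and 78.9 ± 12.8 CPM in controls (SD, n = 4 each). For SIFa the fitted log2 difference was -0.18 (SE 0.18, 95% interval -0.56 to 0.21; edgeR adjusted p = 0.732). CG6962, opposite sad, had 5, 18, 17 and 14 reads in mutants and 13, 24, 14 and 14 in controls, and the log2 difference was -0.34 (SE 0.34, 95% interval -1.07 to 0.40; edgeR adjusted p = 0.732). Its lowest library was mutant replicate 1 and its highest control replicate 2.

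The feature of Rnb, opposite sro, had 8, 16, 9 and 10 reads in mutants and 8, 9, 12 and 5 in controls (ratio 1.22, exact 95% interval 0.761 to 1.98; exact permutation p = 0.429). CG13807, opposite ecd, had 8, 8, 12 and 14 reads in mutants and 9, 6, 10 and 6 in controls, with levels of 23.6 ± 6.79 and 18.0 ± 3.80 CPM (SD, n = 4 each; exact permutation p = 0.2). Control replicates 1 and 5 lay within the range of the mutants. When both features of a pair were summed, the ratios of mutant to control reads ran from 0.903 for Start1 with SIFa (exact 95% interval 0.722 to 1.13) to 1.20 for ecd with CG13807 (0.798 to 1.82). The narrowest of these intervals, for dib with wit, was 0.936 to 1.28 around 1.095.

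**Figure D4:**
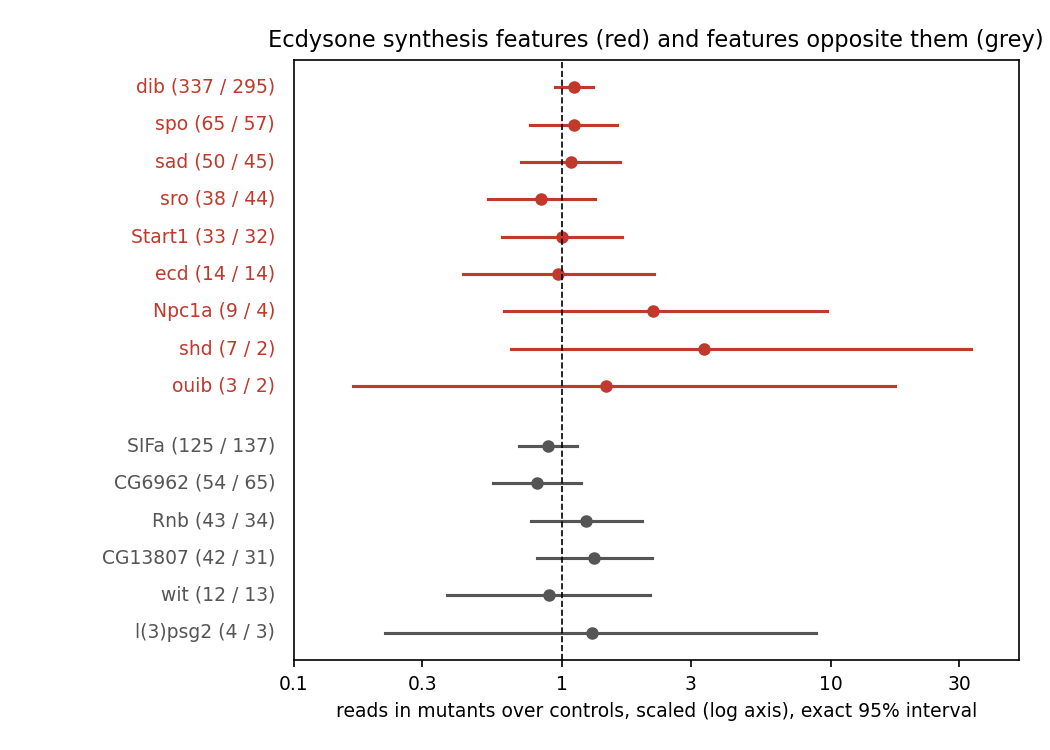
Ratio of reads in Ldh mutants to reads in controls after scaling (log axis) with exact 95% intervals for counting error, for 9 ecdysone synthesis features (red) and 6 features opposite them (grey); the reads of each group are in brackets. All 15 intervals include 1, the narrowest that of dib (0.941 to 1.295), with those of shd (0.644 to 33.4) and ouib (0.166 to 17.4) among the widest.

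Of the 9 members, 6 had a ratio above 1 and 3 below, and of the opposite features 3 lay on either side. Among the 3 members tested, the median log2 fold change was 0.13, beside 0.01 over all features tested. By log2(CPM + 1) over the 8 libraries, the features most like dib were asRNA:CR44807 (Pearson r = 0.925), CG14646 (0.921) and CG43191 (0.910), the highest among 2588 features compared. All of these correlations use the same 8 libraries and are given as a description.

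Genes that feed, carry or answer ecdysone were taken from 5 lists of 51 symbols. Of these 48 were matched, 43 had a read and 7 passed the expression filter. Of the 7, 0 were called (edgeR adjusted p), against 3.17% of all features tested, and 7 genes are too few to tell 0 from that share. An unadjusted p under 0.05 was found for 0 of them (edgeR), and 0 were called by DESeq2 or limma-voom. Their median log2 fold change was 0.10. An exon on the other strand was present in 6 of the 7 tested genes.

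Upstream of the gland enzymes, Npc2e, of a family of sterol-binding proteins, was the most read gene of sterol transport (opposite asRNA:CR44192). It had 14, 40, 73 and 11 reads in mutants and 28, 10, 20 and 9 in controls. Its ratio was 1.99 with a counting interval of 1.48 to 2.71, yet mutant replicates 1 and 6 lay within the range of the controls, and the fit gave a log2 difference of 0.96 (SE 0.50; edgeR adjusted p = 0.389). Npc2b of the same family had 29 reads in mutants and 28 in controls.

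Mitochondrial P450s such as dib and sad draw their electrons from ferredoxin, and Fdx1 (opposite CG4452) had 120 reads in mutants and 107 in controls, with a log2 difference of 0.10 (SE 0.25; edgeR adjusted p = 0.924). Cpr, the reductase of the P450s in the endoplasmic reticulum, had 10 and 12 reads. Among the enzymes that remove ecdysone, Eo, an oxidase, had 4 reads in mutants and 1 in controls, and Cyp18a1, a hydroxylase, 5 and 1, so neither could be compared.

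Among signals and transcription factors of the gland, mld (opposite Syx18), a zinc finger protein that switches on ecdysone synthesis genes, had 241 reads in mutants and 242 in controls. The fitted log2 difference for mld was -0.06 (SE 0.15; edgeR adjusted p = 0.922). For trk (opposite Mulk), which encodes a ligand of the Torso receptor, the value was 0.11 on the same scale (SE 0.19; edgeR adjusted p = 0.870). Ptth, the brain hormone that drives the gland through the same receptor and lies opposite cold by 24 bases, was chosen with its values known. The reads were 7, 9, 17 and 9 reads in mutants and 15, 14, 12 and 14 in controls, and the log2 difference was -0.45 (SE 0.32; edgeR adjusted p = 0.579). Of the mutants, replicate 3 alone reached the control range for Ptth.

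Of the genes that answer the hormone, Hr4 (opposite PIG-K), a nuclear receptor, had 127 reads in mutants and 146 in controls, and the log2 difference was -0.26 (SE 0.19; edgeR adjusted p = 0.613). ImpL1, named for its induction by ecdysone in imaginal discs and without a gene on the other strand, had 13, 35, 54 and 42 reads in mutants and 22, 27, 27 and 38 in controls. The mutant libraries of ImpL1 held both the lowest and the highest value, and the log2 difference was 0.26 (SE 0.32; edgeR adjusted p = 0.802).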

How the data were processed

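Per library, the authors deposited unscaled counts of reads for each FlyBase identifier. Their processing notes list Trimmomatic 0.32 and CASAVA, then TopHat2 2.0.13 with Bowtie2 2.2.4, and HTSeq 0.6.1p1 and DESeq2, with no order. The study's methods describe transcript quantification with Salmon on Ensembl BDGP6 sequences, which is not how these HTSeq counts were made. For the counts used here, the build, annotation, kit and strand setting are not given in the sources used here. The 5 summary lines of each file were left out. Of all reads listed, 1.24% to 1.62% were assigned to features. Names, positions and overlaps (at least 1 exon base) come from the Ensembl BDGP6 annotation, release 115, which placed 17151 of 17445 features and may not be the one used for counting.

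Counts were fitted with edgeR 4.0.16 (quasi-likelihood test, default expression filter, TMM scaling, no covariates; R 4.3.3), adjusted over all 2589 features tested. CPM are counts per 1000000 reads of the effective library, the reads in tested features times the TMM factor. The exact permutation test used all 70 ordered splits and was also adjusted over the 11473 features with a read (lowest adjusted p = 0.766). Ratios have exact 95% intervals, which cover counting error only, as do floors of 3 reads. No library repeated another: chi-square over its degrees of freedom was 1.81 to 3.35 between control replicates and 3.03 to 12.1 between mutant replicates. The mutants thus varied more, with the highest value between mutant replicates 1 and 3.

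Members and lists were chosen with earlier results of these data known. Named are Ldh, all members, features opposite them, the 3 features most like the most-read one, every called gene of each pathway list and up to 2 with the most reads per list. From the lists, magro and EcI matched no current symbol, and br and wupA no identifier. Alternatives were DESeq2 1.42.0, limma-voom (limma 3.58.1), other scalings and filters, robust estimation, a pseudocount of 0.5, a replicate block and leaving out each library.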

Additional observations from a re-analysis of the deposited data

Results flagged for a closer look

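Of 32 sets of 4 values (each feature in each group, and the reads per library), 3 had a library whose gap to the nearest of the others passed Dixon's 95% limit, where chance marks about 1 set in 20. For ouib, mutant replicate 1 had 0 CPM and the other mutants 2.07 to 2.29 CPM, a difference of 1 read. For Rnb, control replicate 6 had 13.5 CPM, from 5 reads, and the other controls 20.8 to 22.0 CPM. For wit, the same control replicate 6 had 16.2 CPM, from 6 reads, and the other controls 4.88 to 5.38 CPM.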

How the results depend on the processing

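Under every alternative run, 0 of the features tested among the 15 were called (lowest edgeR, DESeq2 or limma-voom adjusted p = 0.334). All 141 alternative ratios lay within the intervals given. They reuse the reads those intervals were computed from, and intervals from few reads are wide, so this is a weak check. Of 90 alternative log2 fold changes, 86 kept their direction. That of spo was -0.0635 with the replicate block and -0.0490 on the same 6 libraries without it, and that of sad was -0.0438 without mutant replicate 6 and -0.0162 without control replicate 1, within a range of -0.0438 to 0.315 over left-out libraries. The same range was 0.0029 to 0.35 for spo and 0.0045 to 0.23 for dib, both lowest without mutant replicate 3. Ratios that rest on few reads moved most, to 5.88 for Npc1a without control replicate 5 and 2.28 for ouib without control replicate 6. The groups did not overlap for 1 feature without mutant replicate 3 (sad) and for 1 without mutant replicate 6 (spo), where 17.2% and 12.5% of all features tested did not overlap, and otherwise for 0. Over all features, 82 calls became 184 without a filter, 138 with the replicate block, and 57 to 164 when a library was left out, the highest without mutant replicate 3. The same-numbered libraries share only a number: their deviations correlated at -0.113, 0.00853 and -0.0381. On their 6 libraries 118 features were called without the block. With so few reads, changes of the size inside each interval were not detectable, and larger ones may not have been either. The ratio intervals cover counting error only.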

Other observations

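Among the pathway genes outside the naming rule, Npc2g and tai are given here because their values were seen to stand apart. Npc2g, of the sterol-binding family of Npc2e, had 3, 2, 4 and 4 reads in mutants and 4, 5, 6 and 7 in controls. Its CPM did not overlap between the groups (exact permutation p = 0.0286, the smallest this design can give), a property of 3.73% of features with a read, and after adjustment over all of these p was 0.766. Its ratio of 0.571 had an exact 95% interval of 0.264 to 1.18. The coactivator gene tai (opposite aust), which works with the ecdysone receptor, had 6, 2, 2 and 1 reads in mutants and 7, 4, 7 and 7 in controls. The ratio of tai was 0.425 (exact 95% interval 0.189 to 0.896), mutant replicate 1 lay within the control range, and the exact permutation p was 0.0857.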
